A study of Mus musculus with 4 samples.

Results

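The large ribosomal subunit is built by a set of assembly factors that bind its precursor RNA, remodel it and leave again before the subunit is used. The genes described here encode 46 of these proteins in mouse oocytes. They were taken from a list of 47 symbols by name and make up 46 of the 23235 genes in the table. Noc2l, the other listed gene, has no row and was not analysed here. The rule that picks them uses no measured value. In the deposited table symbols and values run in different sort orders, and every value here rests on an inferred pairing of both.

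Polyadenylated RNA was measured by Smart-seq2, a full-length cDNA method for very small inputs, in 4 libraries of 10 oocytes each. All mice were of C57B6 background and carried floxed alleles of Dcaf13 (Dcaf13fl/fl), so the controls were floxed too. Deletion oocytes came from Dcaf13fl/fl mice that also carried Gdf9-Cre, a transgene that puts Cre recombinase under the Gdf9 promoter, active in oocytes once their follicles start to grow. The growing stage was collected from females of 13.5 to 14.5 days. Fully grown oocytes came from females of 23 days that had received 5 IU of PMSG, a gonadotropin that stimulates follicle growth, 48 h earlier. Stage, age and PMSG therefore cannot be told apart. Deletion of Dcaf13 and presence of the Cre transgene cannot be told apart either. Each of the 4 groups (control and deletion at either stage) held 1 library, so no value below has a replicate error and no test was run.

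Assembly of the large subunit starts in the nucleolus, where the precursor of 28S rRNA is folded, modified and cut, and goes on in the nucleoplasm and cytoplasm. GTPases, RNA helicases and a large AAA-type ATPase drive the steps, export factors carry the particle through nuclear pores, and the last factors are released in the cytoplasm. Growing oocytes are known for large, active nucleoli, and transcription and ribosome production are known to decline as the oocyte reaches full size. Dcaf13 encodes a nucleolar protein that belongs to small subunit assembly and is also a substrate receptor of a ubiquitin ligase.

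Values are FPKM as the authors deposited them, in which fragments are scaled to transcript length and library size. They give a gene's share of a library, not an amount per oocyte, and fewer cells of a type and less RNA per cell cannot be told apart. Dcaf13 stood at 96.1 FPKM in growing control and 38.9 in growing deletion oocytes, and at 160.2 and 64.01 in the fully grown pair, and a value for the whole gene does not show whether its floxed part was lost. Each of the 18 oocyte markers reached 5 FPKM in every library, with medians between 1233 and 1654 FPKM. The 10 granulosa cell markers summed to 29.1 FPKM in control and 12.9 in deletion oocytes of the growing stage, and to 23.98 and 25.9 at the fully grown stage, of which Cyp19a1 made up the most. Of these 10 markers 3 or 4 reached 1 FPKM in each library, and Amh and Foxl2 were at or near 0. The 6 theca and stroma markers summed to at most 1.19 FPKM, and the 6 of blood and endothelium to 11.9 to 18.8, nearly all of it Pecam1. The sum of the granulosa markers was lowest in growing deletion oocytes, and its part in the results of that stage was not tested. Sequencing depth is not stated, and relative depth read from low values was at most 1.12 times that of the growing control.

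The assembly factors ranged from barely detected to abundant RNAs. In the growing control the 46 genes had a median of 18.6 FPKM and summed to 3029.7 FPKM. The median was 23.0 in growing deletion oocytes, and 16.6 and 21.0 in control and deletion of the fully grown stage, and the sums were 3284, 3389.9 and 3588 FPKM. All 46 were at 1 FPKM or more in both growing libraries and 43 in each fully grown library. Where 4 values of a gene are given in a row, the first pair is the growing stage and the second the fully grown stage, each with control before deletion.

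The most abundant was Npm1, which encodes nucleophosmin, the histone-binding and rRNA-binding protein of the nucleolus, at 748, 878, 966 and 1065 FPKM. Rsl1d1, a nucleolar protein with an L1-type ribosomal fold, followed at 466, 450.0, 554 and 554. Next came Eif6, which keeps the new large subunit from joining the small one too early, at 293, 268, 312 and 309. Rsl24d1, a placeholder for a ribosomal protein on the particle, stood at 300.4, 296, 258 and 235, and Mrto4, the placeholder for the stalk protein, at 98.2, 109, 111 and 142. The 5 least abundant were Mdn1, Rrs1, Gnl3l, Nop16 and Ddx54. Mdn1, the AAA-type ATPase that strips factors from the particle, was the lowest of all at 1.001, 2.03, 0.212 and 0.400 FPKM. No member was listed at 0 in any library. The early factors ran from Rrs1 to Rsl1d1, nearly the whole range, while no gene of the PeBoW complex reached 50 FPKM in any library.

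**Figure D1:**
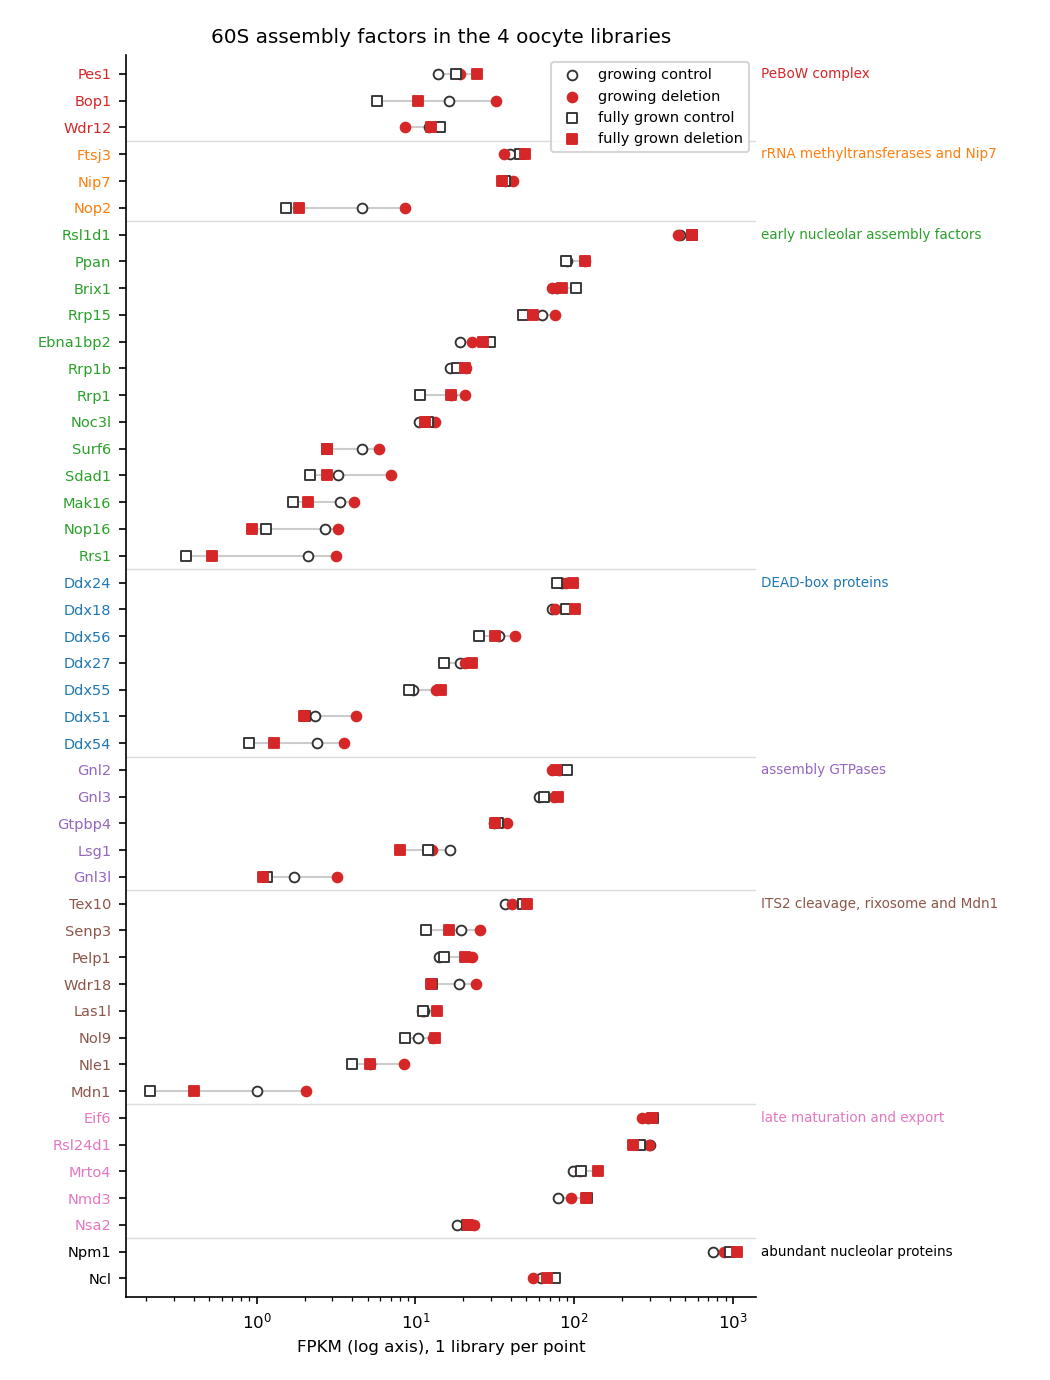
FPKM of the 46 assembly factors on a log axis, grouped by role, with 1 point per library: circles for growing and squares for fully grown oocytes, open for control and filled red for deletion, and a grey line from the lowest to the highest value. Levels run from 0.212 FPKM (Mdn1, fully grown control) to 1065 (Npm1, fully grown deletion), and wide spreads belong to the low genes Nop2, Rrs1 and Mdn1 and to Bop1.

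Promoter windows, 250 bases before to 50 after the start of the gene, were at hand for 39 of the 46 members, from RefSeq on GRCm38.p6. Windows of Bop1, Rrs1, Mak16, Gnl2, Gnl3l, Eif6 and Npm1 were not used here. CACGTG, the E-box that the MYC family and related factors are known to bind, was present in 8 of 39 windows (20.5%), against 8.09% of 27025 genes. CCGGAAG on either strand, a core known to bind ETS-family factors, was present in 16 of 39 (41.0%), against 9.93%. The 27025 genes were not limited to genes expressed in these oocytes, as the members are. The shares among expressed genes were not computed, so neither gap can be called a trait of the assembly factors. CACGTG reads the same on both strands, and the motifs share no stretch that could be counted for both. The 8 windows with CACGTG belong to Pes1, Nop2, Sdad1, Pelp1, Tex10, Mdn1, Nle1 and Nmd3. Both motifs were chosen with the promoters and the changes known, and a match describes letters, not a bound site. The sequences printed here are those of 3 genes with CACGTG whose values are given in full further on, 1 of which also holds CCGGAAG, and of Rsl1d1, an abundant member with CCGGAAG and no CACGTG. Each runs 5′ to 3′ along the gene's strand with the motifs in capitals.
Nop2, chr6:125131633-125131932, plus strand: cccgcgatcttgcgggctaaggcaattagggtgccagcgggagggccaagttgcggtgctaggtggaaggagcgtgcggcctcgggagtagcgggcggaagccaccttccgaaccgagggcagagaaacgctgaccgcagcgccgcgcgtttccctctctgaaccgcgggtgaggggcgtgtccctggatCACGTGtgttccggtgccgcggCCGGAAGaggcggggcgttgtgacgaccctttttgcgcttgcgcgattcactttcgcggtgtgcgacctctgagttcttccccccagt
Sdad1, chr5:92309975-92310274, minus strand: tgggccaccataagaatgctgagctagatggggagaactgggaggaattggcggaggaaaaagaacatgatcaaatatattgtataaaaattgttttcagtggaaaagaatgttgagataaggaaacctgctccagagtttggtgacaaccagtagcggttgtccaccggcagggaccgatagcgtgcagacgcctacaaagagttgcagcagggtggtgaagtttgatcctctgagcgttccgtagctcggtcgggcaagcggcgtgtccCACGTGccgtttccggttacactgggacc
Pes1, chr11:3963725-3964024, plus strand: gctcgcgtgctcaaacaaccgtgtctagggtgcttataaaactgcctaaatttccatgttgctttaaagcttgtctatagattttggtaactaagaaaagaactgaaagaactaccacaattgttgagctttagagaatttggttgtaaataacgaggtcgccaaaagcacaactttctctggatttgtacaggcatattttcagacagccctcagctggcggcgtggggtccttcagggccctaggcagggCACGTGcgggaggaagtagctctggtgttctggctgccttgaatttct
Rsl1d1, chr16:11203243-11203542, minus strand: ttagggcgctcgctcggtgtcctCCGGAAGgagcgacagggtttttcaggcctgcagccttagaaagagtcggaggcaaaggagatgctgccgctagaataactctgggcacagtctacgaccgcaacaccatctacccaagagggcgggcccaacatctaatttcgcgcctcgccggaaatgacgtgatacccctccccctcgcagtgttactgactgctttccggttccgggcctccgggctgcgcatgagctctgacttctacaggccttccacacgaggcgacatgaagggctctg

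In Nop2 the CACGTG starts 60 bases before the gene's start and the CCGGAAG 38 before it. In Sdad1 the CACGTG starts 21 bases after the start, and in Pes1 it starts 2 bases after. In Rsl1d1 the CCGGAAG lies far upstream, 227 bases before the start.

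The comparison of deletion with control oocytes asks how the RNA of oocytes with the Dcaf13 deletion and its Cre transgene differs from that of floxed controls. Most assembly factors stood slightly higher in the deletion libraries, 27 of the 46 at both stages, and no member reached the size of difference used here. Bop1 had the highest change of the 46 at either stage. A change is a difference in log2(FPKM + 1), and this scale makes the change of a low gene look smaller. A gene counted as higher or lower if it reached 5 FPKM in at least 1 of the 2 libraries and its change was at least 1 in size. By this rule 0 of 39 members at the minimum were higher in growing deletion than growing control oocytes and 0 were lower. Over all genes, 8010 reached the minimum, of which 2.62% counted as higher and 2.51% as lower. In fully grown oocytes 0 of 36 members were higher and 0 lower, against 1.08% and 1.09% of 7413 genes.

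Of all 46 members, 36 had a change above 0 in growing oocytes, with a median of 0.28, while 58.5% of all genes at the minimum did, with a median of 0.08. In fully grown oocytes 30 members were above 0, with a median of 0.16, against 55.0% of all genes and a median of 0.04. The 10th to 90th percentile of all genes ran from -0.46 to 0.59 in growing and -0.41 to 0.48 in fully grown oocytes. The 2 deletion comparisons share no library. In both, 27 members were above 0 and 7 below, 9 were above 0 only in growing oocytes and 3 only in fully grown ones. The share of all genes above 0 at both stages was not computed. Across all 46 members, including those under the minimum, the 2 changes had a Pearson correlation of 0.53. Across 7188 genes at the minimum at both stages it was 0.44. Under the pairing as deposited the members' medians were 0.0962 and 0.000534. Genes are not independent replicates, and the points share libraries, GC content and level.

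**Figure D2:**
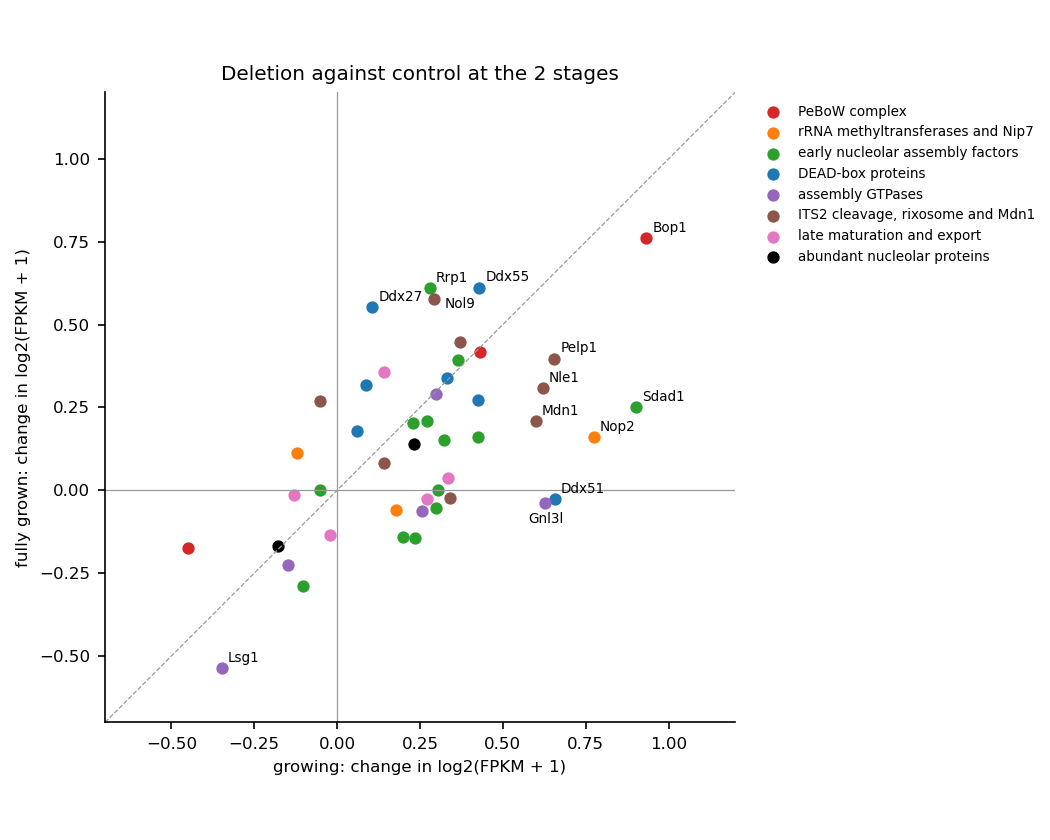
Change in log2(FPKM + 1) of each assembly factor, deletion minus control, in growing oocytes (x axis) and in fully grown oocytes (y axis), coloured by role, with the dashed line at equal changes and members beyond 0.45 on either axis named. Most points lie at the upper right, above 0 on both axes, with Bop1 farthest out at 0.93 and 0.76 and Lsg1 low at -0.35 and -0.54.

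GC content moved with these changes. Over all 46 members, Spearman's correlation of a gene's change with the GC content of its longest annotated transcript was 0.44 in growing oocytes. It was 0.53 in fully grown ones, and 0.36 and 0.39 over all genes at the minimum. The members' median GC content was 48.9%, against 49.2% of all genes at the minimum in any library. After a smooth trend on GC content and transcript length over all genes was removed, 39 members were above 0 in growing oocytes, with a median of 0.23, and 31 in fully grown ones, with a median of 0.12. The sign of the change turned in growing oocytes for Brix1, Rsl1d1, Ddx27, Las1l, Rsl24d1, Mrto4 and Ncl, and in fully grown oocytes for Nop2, Nip7, Surf6, Noc3l, Ddx54, Gnl3l, Gtpbp4, Nle1 and Nmd3.

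The PeBoW complex joins Bop1, Pes1 and Wdr12 and is needed for cutting the spacers next to the rRNA of the large subunit. Bop1 (chromosome 15, minus strand, 76283426 to 76307699, mm9) stood at 16.4, 32.1, 5.75 and 10.4 FPKM. Its deletion values were 1.96 and 1.81 times those of control in growing and fully grown oocytes, changes of 0.93 and 0.76. Both deletion libraries were above the control of their stage, and both growing libraries above both fully grown ones. Of all genes at the minimum, 96.8% had a lower change in growing and 97.3% in fully grown oocytes. With the GC and length trend removed the changes of Bop1 were 0.64 and 0.47. Sdad1 (0.94), Mdn1 (0.91) and Gnl3l (0.71) in growing oocytes and Ddx55 (0.53) in fully grown oocytes were then higher. The Scx gene lies inside the span of Bop1 on the opposite strand and read at most 1.75 FPKM. Pes1, whose promoter with CACGTG was given before, stood at 14.0, 19.2, 17.9 and 24.3 FPKM, higher in deletion at both stages by 0.43 and 0.42. Wdr12 differed in sign from its partners, at 12.1, 8.59, 14.3 and 12.5 FPKM, with changes of -0.45 and -0.17. The change of Wdr12 in growing oocytes was the lowest of the 46 members as measured. With the GC and length trend removed it was -0.19, and Eif6 (-0.39) and Lsg1 (-0.36) were lower. The trend used the longest annotated transcript of Wdr12, of 10012 bases, which need not be the one present in oocytes.

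Among the enzymes that modify the rRNA and their partner, Nop2 stood apart. Nop2 (chromosome 6, plus strand, 125081901 to 125094771, mm9), which methylates a cytosine of 28S rRNA, stood at 4.62, 8.62, 1.54 and 1.83 FPKM. It was higher in growing deletion than growing control oocytes by 0.77, while the fully grown pair differed by 0.16 at the low levels just given. It is the gene whose printed promoter holds both motifs. Ftsj3, which methylates riboses of the rRNA, stood at 39.6, 36.3, 45.4 and 49.2 FPKM and differed by -0.12 and 0.11. Nip7, an RNA-binding protein of the particle, stood at 36.4, 41.4, 36.8 and 35.3 FPKM and differed by 0.18 and -0.06. Neither differed by more than 0.18 between deletion and control.

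The 13 genes grouped here as early nucleolar factors encode proteins of precursor particles, and Sdad1 and Noc3l are also linked to later steps. In growing oocytes 11 of the 13 had a change above 0, with a median of 0.28, and in fully grown ones 9, with a median of 0.15. With the GC and length trend removed all 13 and 9 were above 0. Sdad1 (chromosome 5, minus strand, 92713036 to 92739050, mm9), the relative of a yeast factor of particle maturation and export, stood at 3.27, 6.97, 2.16 and 2.77 FPKM. Its growing deletion value was 2.13 times that of the growing control, a change of 0.90, and its fully grown pair differed by 0.25. With a pseudocount of 0.1 the growing change was 1.07 and would count as higher, though only its growing deletion value reached 5 FPKM. The single growing deletion library stood above the other 3, which lay between 2.16 and 3.27 FPKM.

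Rrs1, which helps to bring the 5S particle to the large subunit, stood at 2.09, 3.15, 0.360 and 0.520 FPKM, with deletion changes of 0.42 and 0.16. Rrp1 and its paralog Rrp1b are related nucleolar proteins. Rrp1 stood at 16.8, 20.6, 10.7 and 16.8 FPKM and was higher in deletion by 0.28 and 0.61, the second being among the top 3 member changes in fully grown oocytes. Rrp1b stood at 16.4, 20.8, 18.4 and 20.5 FPKM, with changes of 0.32 and 0.15. Ppan, a protein with the BRIX domain, stood at 90.5, 117, 89.0 and 117 FPKM, above control by 0.37 and 0.39 at the 2 stages. The deletion values of Ppan at the 2 stages nearly coincided, and so did its control values. Brix1, which carries the same domain, stood at 77.9, 72.5, 102 and 83.3 FPKM, with changes of -0.10 and -0.29 that became 0.04 and -0.15 with the GC and length trend removed.

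Rrp15, a factor of pre-60S particles, stood at 62.4, 75.6, 47.8 and 55.4 FPKM, with changes of 0.27 and 0.21. Ebna1bp2, a partner of early particles that is also known to bind a viral protein, stood at 19.2, 22.8, 29.5 and 26.6 FPKM, with changes of 0.24 and -0.14. Noc3l, part of a NOC complex linked to the movement of particles out of the nucleolus, stood at 10.6, 13.2, 11.9 and 11.5 FPKM, with changes of 0.30 and -0.05. These 3 genes were higher in growing deletion than growing control oocytes by a similar small margin, and in fully grown oocytes their changes had mixed signs. Mak16, Nop16 and Surf6 are low nucleolar factors. Mak16 stood at 3.36, 4.10, 1.69 and 2.101 FPKM and Nop16 at 2.71, 3.25, 1.14 and 0.940, while Surf6 stood at 4.58, 5.89, 2.76 and 2.76. Their growing deletion values were the highest of the 4 libraries in each case. Mak16 overlaps Tti2 on the opposite strand over 5236 bases, and since the handling of strand is not given their reads cannot be told apart. Of the 46 members 8 overlap another gene on the opposite strand. Ebna1bp2 overlaps a gene other than a small RNA gene on the same strand, and Gnl3 and Ncl hold 4 small RNA genes on theirs. Rsl1d1 differed by -0.05 and 0.00.

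The 7 DEAD-box proteins are RNA helicases that unwind the precursor. All 7 had a change above 0 in growing oocytes and 6 in fully grown ones, with medians of 0.33 and 0.32. Without the GC and length trend 6 and 5 were above 0, with medians of 0.17 and 0.20. Ddx55 stood at 9.70, 13.4, 9.11 and 14.4 FPKM, with changes of 0.43 and 0.61. Ddx27, known as a partner of the PeBoW complex, stood at 19.1, 20.6, 15.1 and 22.7 FPKM, with changes of 0.11 and 0.55. Ddx56 stood at 33.4, 42.3, 25.0 and 31.9 FPKM, higher in deletion by 0.33 and 0.34. In Ddx55 and Ddx27 both deletion libraries stood above both control libraries. The abundant Ddx24 and Ddx18 showed smaller differences. Ddx24 stood at 84.2, 89.4, 78.4 and 98.1 FPKM, with changes of 0.09 and 0.32, and Ddx18 stood at 72.6, 75.8, 88.9 and 101, with changes of 0.06 and 0.18. Ddx51 and Ddx54 were low. Ddx51, which acts at the end of 28S rRNA, stood at 2.32, 4.23, 2.03 and 1.97 FPKM, with changes of 0.66 and -0.03, so that the growing deletion library alone was high. Ddx54 stood at 2.38, 3.55, 0.894 and 1.29 FPKM, with changes of 0.43 and 0.27.

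The 5 GTPases had no common direction. Lsg1, the cytoplasmic GTPase that releases the export factor Nmd3, was lower in deletion at both stages, at 16.5, 12.8, 12.1 and 8.02 FPKM with changes of -0.35 and -0.54. Its fully grown change was the lowest of the 46 members. Gnl2, a GTPase of late nuclear particles, was also lower at both stages, at 79.9, 72.1, 90.2 and 76.95 FPKM with changes of -0.15 and -0.23. Gnl3, nucleostemin, was higher at both stages, at 60.5, 74.6, 64.3 and 78.9 FPKM with changes of 0.30 and 0.29. Gtpbp4, a GTPase of nucleolar and nuclear particles, stood at 31.3, 37.6, 33.3 and 31.9 FPKM, with changes of 0.26 and -0.06. Gnl3l, a paralog of nucleostemin, stood at 1.72, 3.19, 1.15 and 1.10 FPKM and was higher in growing deletion than growing control oocytes by 0.63, with -0.04 in fully grown oocytes. As with Ddx51, its growing deletion value alone stood out.

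The internal spacer before 28S rRNA is cut by Las1l, an endonuclease, with the kinase Nol9, and the rixosome of Pelp1, Tex10 and Wdr18, together with the SUMO protease Senp3, works with Mdn1 on the particle that follows. Of these 7 genes and Nle1, a factor that Mdn1 removes, 7 of 8 had a change above 0 at each stage, with medians of 0.36 and 0.29. Pelp1 stood at 14.0, 22.7, 15.2 and 20.4 FPKM, higher in deletion by 0.65 and 0.40, and both deletion libraries stood above both controls. Senp3 stood at 19.5, 25.5, 11.7 and 16.3 FPKM, with changes of 0.37 and 0.45. Nol9 stood at 10.3, 12.9, 8.54 and 13.2 FPKM, with changes of 0.29 and 0.58, and again both deletion libraries stood above both controls. Las1l, its partner, stood at 11.4, 10.9, 11.1 and 13.6 FPKM and differed by -0.05 and 0.27. In fully grown oocytes both partners of this pair were higher in deletion, and in growing oocytes Nol9 alone.

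Tex10 stood at 36.8, 40.6, 47.7 and 50.6 FPKM, with small deletion changes of 0.14 and 0.08. Wdr18 stood at 18.8, 24.1, 12.8 and 12.6 FPKM and differed by 0.34 in growing and -0.02 in fully grown oocytes. Nle1 stood at 5.15, 8.45, 3.97 and 5.15 FPKM and was higher in deletion by 0.62 and 0.31. The low gene Mdn1 differed by 0.60 and 0.21. Pelp1, Nle1 and Mdn1 are among the 8 members with CACGTG in the promoter window. All 8 were above 0 in growing oocytes, with a median of 0.61, while 23 of the 31 without it were, with a median of 0.26. In fully grown oocytes 7 of 8 and 19 of 31 were above 0, with medians of 0.23 and 0.11. For CCGGAAG the counts in growing oocytes were 11 of 16 with it and 20 of 23 without it, with medians of 0.21 and 0.30. In fully grown oocytes they were 10 of 16 and 16 of 23, with medians of 0.04 and 0.21. These counts carry no test, both motifs were chosen with the changes known, and no such split was made over all genes. Of the 8 with CACGTG, Nop2, Sdad1 and Mdn1 had a mean under 5 FPKM over the 4 libraries. All 10 members of that level were above 0 in growing oocytes, with a median of 0.51.

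The 5 late factors act up to and after export, and 3 of them in growing and 2 in fully grown oocytes had a change above 0. Eif6, Rsl24d1 and Mrto4 differed by -0.13, -0.02 and 0.14 in growing and -0.01, -0.13 and 0.36 in fully grown oocytes. Nmd3, the adaptor that carries the particle through the nuclear pore, stood at 79.7, 96.3, 121 and 119 FPKM, with changes of 0.27 and -0.03. Nsa2, a factor of nuclear particles, stood at 18.3, 23.3, 21.0 and 21.6 FPKM, with changes of 0.33 and 0.04. Once the GC and length trend was removed, the growing changes of Nmd3, Nsa2 and Eif6 were larger in size, at 0.51, 0.50 and -0.39. Npm1 and Ncl are multifunctional nucleolar proteins. Npm1 was higher in deletion by 0.23 and 0.14. Ncl, nucleolin, stood at 62.3, 55.0, 75.5 and 67.0 FPKM, with changes of -0.18 and -0.17, which turned to 0.01 and -0.08 with the GC and length trend removed. Npm1 is known to have many processed copies in the genome, and the counting of reads with several matches is unknown here.

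The comparison of fully grown with growing oocytes asks how these RNAs differ between stages in each genotype. Low assembly factors were lower in fully grown oocytes in both genotypes, and most abundant ones were slightly higher. Bop1 was the 1 member counted as lower in control oocytes, and Bop1, Nop2 and Sdad1 were counted as lower in deletion oocytes. Nop2 and Sdad1 reached 5 FPKM only in growing deletion oocytes, so both counts rest on the library in which they were high. In control oocytes Nop2 changed by -1.15 and was not counted, since it stayed under 5 FPKM there. The control comparison counted 1 of 36 members at the minimum as lower and 0 as higher, against 3.07% lower and 1.11% higher of 7661 genes. The deletion comparison counted 3 of 39 as lower and 0 as higher, against 8.75% lower and 2.70% higher of 7957 genes. As shares the members' counts were 2.78% and 7.69%, near those of all genes. With a minimum of 10 FPKM in place of 5, Bop1 alone counted as lower in either genotype, and with a minimum of 1 FPKM 3 members did in control and 6 in deletion oocytes. Each growth comparison shares its libraries with the deletion comparisons, so their values are not independent of those already given.

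Over growth 21 of the 46 members were above 0 in control and 21 in deletion oocytes, with medians of -0.06 and -0.13. Among all genes at the minimum 43.9% and 44.1% were above 0, with medians of -0.06 and -0.07. The 2 growth comparisons share no library. Across all 46 members, including those under the minimum, their changes had a Pearson correlation of 0.89. Across 7383 genes at the minimum in both comparisons it was 0.68. With the GC and length trend removed the members' value was 0.86. In both genotypes 15 members were above 0 and 19 below, and the others, 6 each way, differed in sign. The change was lower in deletion than in control oocytes for 30 of the 46. By arithmetic these are the 30 whose deletion change was lower in fully grown than in growing oocytes. The shares over all genes were not computed, for this count or for the signs in both genotypes.

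**Figure D3:**
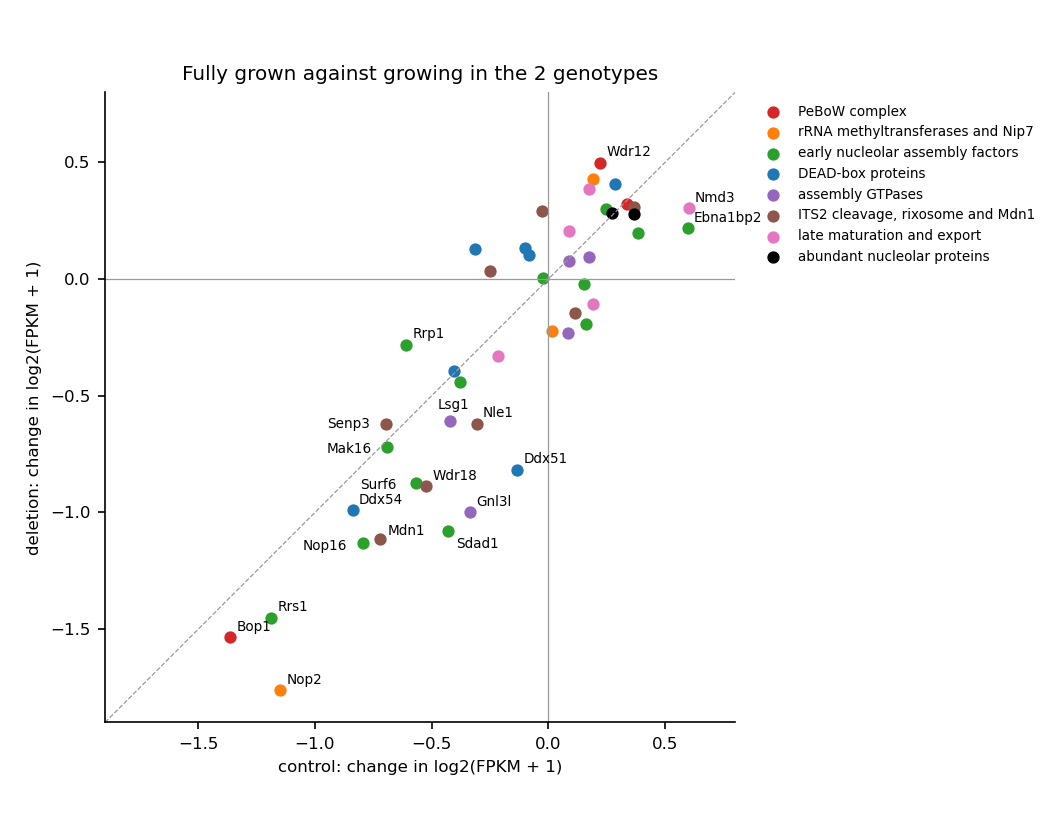
Change in log2(FPKM + 1) of each assembly factor from growing to fully grown oocytes in control (x axis) and deletion (y axis), coloured by role, with the dashed line at equal changes and members beyond 0.45 on either axis named. The points lie along the line from Bop1, Nop2 and Rrs1 at the lower left to Nmd3 and Ebna1bp2 at the upper right, and more of them lie under the line than above it.

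Bop1 differed between fully grown and growing oocytes by -1.36 in control and -1.54 in deletion, which is 0.351 and 0.325 times the growing value. Its changes without the GC and length trend were -1.08 and -1.21. Under the pairing as deposited the changes of Bop1 were 0.13 and 0.13. Its partners Pes1 (0.34 and 0.32) and Wdr12 (0.22 and 0.50) were higher in fully grown oocytes in both genotypes. In growing deletion oocytes Bop1 was the most abundant RNA of the complex, and in fully grown control oocytes the least abundant. The changes of Nop2 were -1.15 in control, where it stayed under the minimum level, and -1.76 in deletion. Sdad1 differed by -0.43 and -1.08, and its fully grown libraries stood at 2.16 and 2.77 FPKM.

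At the other end stood Nmd3 and Ebna1bp2 in control oocytes, with changes of 0.60 and 0.60, the highest of the 46. In deletion oocytes these were 0.30 and 0.22, and the highest were Wdr12 with 0.50 and Ftsj3 with 0.43. Without the GC and length trend Wdr12 was at 0.26 and Mrto4, at 0.54, was highest. For the catalytic pair of spacer cutting, Las1l differed by -0.03 and 0.29 and Nol9 by -0.25 and 0.03. Within the rixosome Wdr18 was lower in fully grown oocytes, with -0.53 and -0.89, Tex10 was higher, with 0.37 and 0.31, and Pelp1 was near level, with 0.11 and -0.15. Senp3 was lower, with -0.70 and -0.62. The genes of this machine did not share a direction over growth. Npm1 (0.37 and 0.28) and Ncl (0.27 and 0.28) were higher in fully grown oocytes in both genotypes.

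Change over growth went with level. Spearman's correlation of the change with the mean FPKM of the 4 libraries was 0.67 over all 46 members in control and 0.67 in deletion oocytes. Over all genes at the minimum it was 0.23 and 0.25. The members' values include 10 genes under the minimum in control and 7 in deletion oocytes, so the gap is not like for like. The 10 members with a mean under 5 FPKM were Nop2, Rrs1, Mak16, Nop16, Surf6, Sdad1, Ddx51, Ddx54, Gnl3l and Mdn1, in classes of level chosen after the values were seen. All 10 were lower in fully grown oocytes in both genotypes, with median changes of -0.71 and -1.04. Of 4801 genes with a mean from 0.5 to 5 FPKM, 67.6% and 66.4% were lower, with medians of -0.18 and -0.25. The 22 members with a mean from 5 to 50 FPKM had medians of -0.01 and -0.13. Of the 14 at 50 FPKM or more, 10 and 12 were higher, with medians of 0.17 and 0.20.

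The low members differed in how far they went. Rrs1 differed by -1.19 and -1.45, Ddx54 by -0.84 and -0.99, and Nop16 by -0.79 and -1.13. Mdn1 differed by -0.72 and -1.11, Mak16 by -0.69 and -0.72, and Surf6 by -0.57 and -0.87. Ddx51 and Gnl3l differed by -0.13 and -0.34 in control and by -0.82 and -0.998 in deletion oocytes, and in both genes the growing deletion value was the high one. The same 10 genes were all above 0 in growing deletion against growing control oocytes, with a median of 0.51, and 56.6% of genes of that level were. In that comparison Spearman's correlation of the change with the mean FPKM was -0.56 over all 46 members, including those under the minimum. It was -0.11 over all genes at the minimum. In fully grown oocytes 7 of the 10 were above 0. The part of read counting error in these low values was not tested, since the deposited FPKM do not give counts. GC content moved with the growth changes too, with Spearman's correlations of -0.52 and -0.38 over all 46 members. They were -0.30 and -0.23 over all genes at the minimum. The 10 low members had a median GC content of 50.5% and the 14 abundant ones 45.9%.

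**Figure D4:**
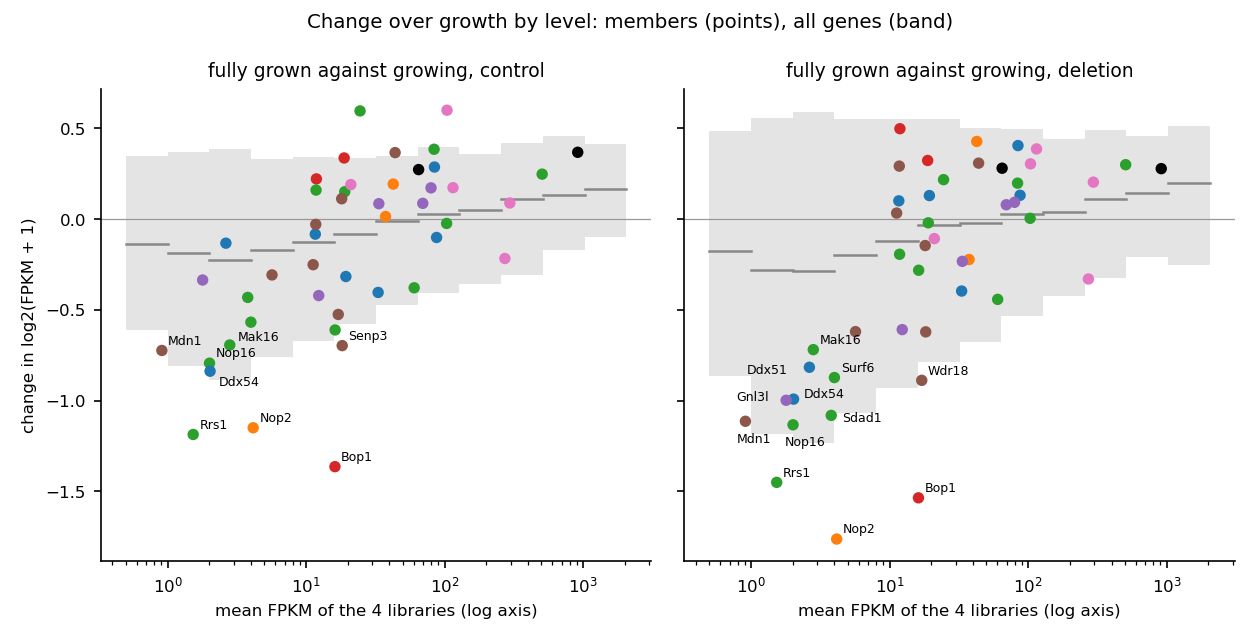
Change in log2(FPKM + 1) from growing to fully grown oocytes in control (left) and deletion (right) against the mean FPKM of the 4 libraries on a log axis, with members as points coloured by role as in the other plots, and all genes of a level class as a grey bar for the median in a band from the 10th to the 90th percentile. Bop1, Nop2, Rrs1 and Mdn1 lie below the band in both panels, and members above 50 FPKM lie mostly above 0.

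Other genes of large subunit assembly, 26 with a row out of 27 listed, were compared in the same way. In growing oocytes 22 of 26 had a change above 0, with a median of 0.13, and in fully grown ones 17, with a median of 0.07. With the GC and length trend removed their medians were 0.20 and 0.09, against 0.23 and 0.12 for the 46 members. None was counted as higher or lower in either deletion comparison. Gltscr2, which encodes a nucleolar protein of particle assembly, stood at 23.2, 41.3, 12.8 and 9.95 FPKM, with deletion changes of 0.81 and -0.33. From growing to fully grown deletion oocytes it differed by -1.95 and was counted as lower, as was Grwd1, a histone chaperone linked to the ribosome, with -1.06. Grwd1 stood at 7.31, 10.4, 4.20 and 4.46 FPKM. Npm3, a relative of Npm1, stood at 2.66, 5.13, 4.93 and 5.15 FPKM and was higher in growing deletion oocytes by 0.74.

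The lowest change of these genes in growing oocytes was that of Dnajc21, a J-domain protein of cytoplasmic recycling, with -0.37, followed by Llph with -0.05. In fully grown oocytes the highest were Rrp8, a nucleolar methyltransferase, with 0.45 and Bccip with 0.41, and the lowest were Zfp593 with -0.90 and Rpl7l1 with -0.36. Zfp593, whose product accompanies late particles, stood at 10.96, 12.0, 13.0 and 6.47 FPKM. The 47 genes of large subunit ribosomal proteins had medians of 0.30 and 0.25 in deletion against control oocytes, with 45 and 41 above 0, and 1 was counted as higher at each stage. The 50 genes of small subunit assembly, the branch of assembly in which Dcaf13 acts, had medians of 0.19 and 0.13, with 39 and 33 above 0. The medians of the 46 assembly factors, 0.28 and 0.16, lay between those of both lists. With the GC and length trend removed the order turned in growing oocytes only. There the members had 0.23, the ribosomal protein genes 0.18 and the small subunit genes 0.18. In fully grown oocytes the members' 0.12 still lay between 0.09 for the small subunit genes and 0.24 for the ribosomal protein genes. Over growth the ribosomal protein genes had medians of 0.13 and 0.10 and the small subunit genes of 0.02 and -0.07, and the assembly factors of -0.06 and -0.13. The differences between the lists were not tested.

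**Figure D5:**
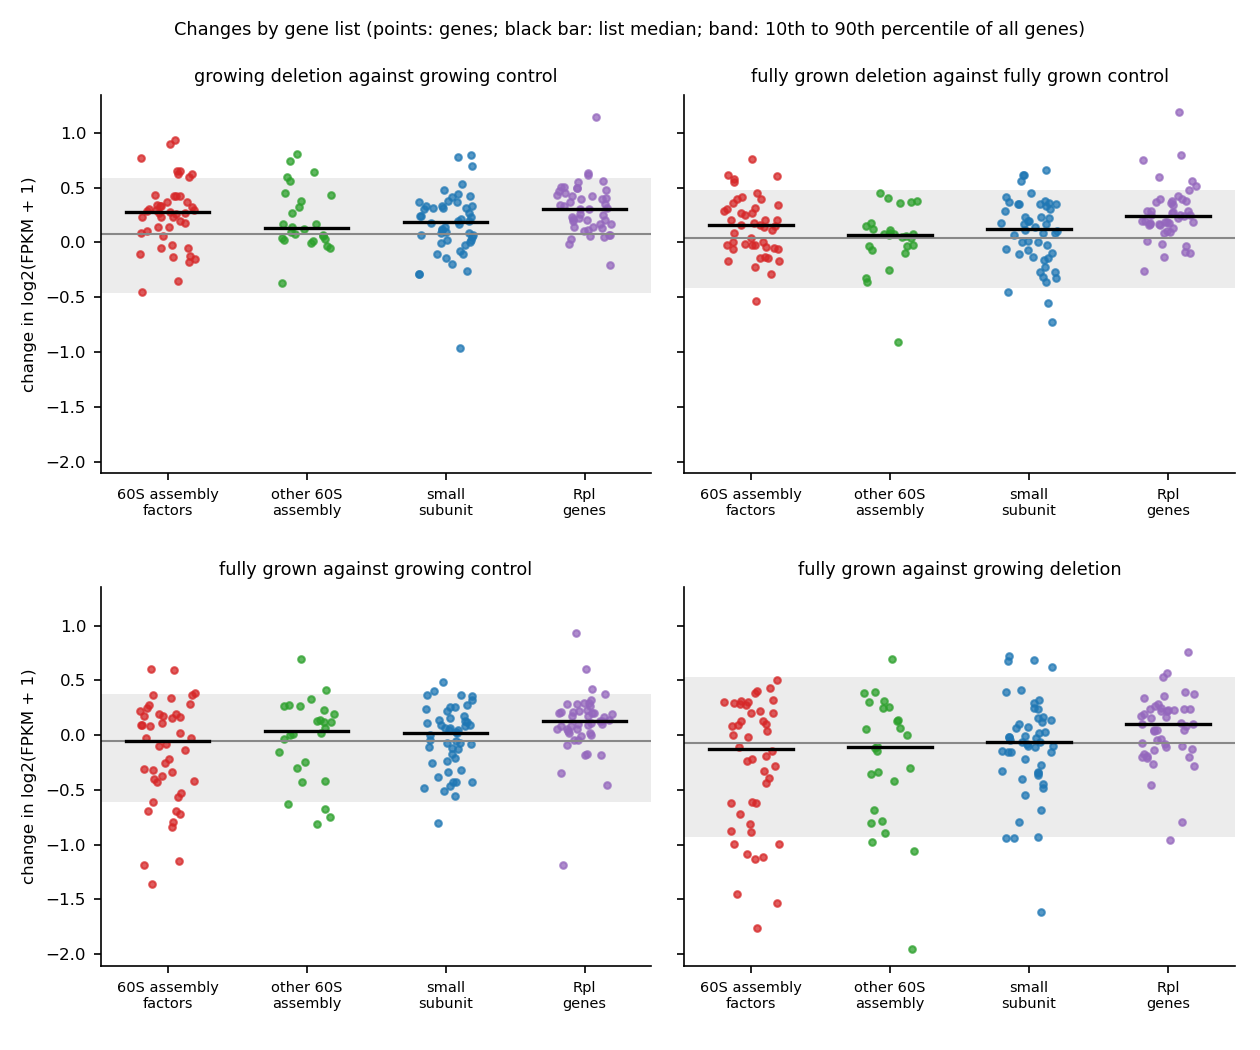
Change in log2(FPKM + 1) of single genes in the 4 comparisons for the assembly factors, the other large subunit assembly genes, the small subunit genes and the genes of large subunit ribosomal proteins (Rpl), with a black bar at the list's median, a grey line at the median of all genes at the minimum and a grey band from their 10th to 90th percentile. In growing deletion oocytes all 4 black bars lie above the grey line, from 0.13 to 0.30, and over growth in control the assembly factors run from -1.36 to 0.60.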

How the data were processed

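The authors deposited FPKM values in 1 table of 23235 gene symbols, and the values of the 4 tables per sample are the same. Per the submitters' processing notes the tools were Cufflinks 2.2.1, Bowtie2 2.1.0, TopHat2 2.0.11 and CASAVA 1.8 and the build was mm9, with no roles. For gene models, filters, strand and reads with several matches, what was done is not given in the sources used here.

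Symbols and values as deposited run in different sort orders. The symbols sorted in byte order were therefore paired with the value rows in file order, an inference from the values that was not checked with the submitters. Under it 9 members keep their value row, 36 take one from 1 or 2 rows away, and Las1l takes one from 61 rows away. The 18 oocyte markers had a median of 1411 FPKM after pairing and 16.6 as deposited. Among low genes within 50 rows of a member, the smallest value above 0 correlated with transcript length (both as logs) at -0.28 after pairing and at -0.10 as deposited. Start coordinates count from 0 in the file and are given here from 1.

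Changes are differences in log2(FPKM + 1). Members and lists were chosen with earlier results of these data known. No test was run, since 1 library per group leaves the error within a group unknown. Named in full were members past the rule of size, the 5 most and 5 least abundant, the 2 largest changes each way per comparison and complexes of 5 or fewer genes; of the other large subunit genes, those past the rule and the 2 largest deletion changes each way. GC content and length came from the longest GENCODE M21 transcript of each gene on GRCm38, and a cubic trend on both was fitted over all genes at the minimum. Whether the longest transcript is the one present in oocytes was not tested. The computation used Python 3.11.15, pandas 2.3.3, NumPy 2.4.6 and SciPy 1.17.1, and was tested on simulated data. Alternatives were another pseudocount, other minimum levels, rescaling by median ratios, removal of the GC and length trend, and the pairing as deposited.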

Additional observations from a re-analysis of the deposited data

How the results depend on the processing

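Counts of members by the rule of size depended on the pseudocount, on the minimum level and on the pairing. With a pseudocount of 0.1, 1 member (Sdad1, 1.07) was higher in growing deletion than growing control oocytes, and it reached the minimum in growing deletion oocytes only. That is 2.56% of the members at the minimum, against 3.41% of all genes. Surf6 then joined the members lower over growth in deletion oocytes, which made 4 of 39 (10.3%), against 10.4% of all genes. Surf6, too, reached the minimum in growing deletion oocytes only. With a minimum of 1 FPKM, and with none, 3 members (Bop1, Nop2 and Rrs1) were lower over growth in control and 6 (those and Nop16, Sdad1 and Mdn1) in deletion oocytes. With a minimum of 10 FPKM only Bop1, 1 member, was lower in deletion oocytes. Rescaling moved the members' median growth change in control to -0.0235. Removal of the GC and length trend moved the medians over growth to -0.0195 in control and -0.0219 in deletion oocytes. Under the pairing as deposited, which puts other values beside 37 members, the median deletion changes were 0.0962 in growing and 0.000534 in fully grown oocytes. The median growth change in deletion oocytes was then -0.0188. Over growth 1 member was then higher (Tex10) and 0 lower in control, and 1 higher (Tex10) and 1 lower (Ftsj3) in deletion oocytes. The growth changes of Bop1 turned to 0.13 and 0.13 there. Of the members' single changes in the 4 comparisons, 173 kept their size and side of the threshold under rescaling and 11 moved. Under removal of the trend 111 kept them and 73 moved. Under the deposited pairing 62 kept them, 115 moved and 2 reversed, while 3 became stronger and 2 weaker. No replicate could be left out, since each group held 1 library. No paired analysis was possible because the groups hold 1 library each and share fewer than 2 replicate numbers. Depth is unknown, so the counting error of members under 5 FPKM cannot be stated.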

Other observations

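Ncl holds the small nucleolar RNA gene Snora75 within its span, on the same strand. Snora75 was listed at 0 FPKM in growing control and stood at 6.503 in growing deletion oocytes, and at 42.6 and 69.0 in control and deletion oocytes of the fully grown stage. It was named after its values were seen. Ncl itself stood at 62.3, 55.0, 75.5 and 67.0 FPKM in the same libraries, so the small RNA gene was higher in both fully grown libraries than in both growing ones while the differences of its host were smaller. Snora75 overlaps Ncl over 116 bases, so its reads and those of its host cannot be told apart. Polyadenylated RNA was measured, and whether these values reflect the small RNA itself was not tested. Snord82, which also lies in Ncl, and Snord19 and Snord69, which lie in Gnl3, were listed at 0 in all 4 libraries.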
